A study of Rattus norvegicus with 6 samples.

Results

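Synaptic vesicle genes were examined in bulk RNA-seq of pulmonary veins (PVs), from 3 rats with bilateral banding of these veins (BPVB group) and 3 rats with sham surgery (sham group). They were taken as the rows of the deposited expression table that carry the Gene Ontology term for synaptic vesicle. A mean FPKM over the 6 libraries of at least 0.1 was also required (FPKM, the number of fragments corrected for gene length and library total). Of the 17833 genes in the table, 179 carried the term. The rule left out 12 genes by name, of which 4 carried the term (Ddc, Slc18a3, Slc5a7 and Th, genes of transmitter synthesis or uptake), and 13 others with the term lay under the limit. The remaining 162 genes were the members, all among the 15150 genes that passed the same limit and were tested. The mean FPKM thus chose the members, and it includes both groups. A total of 156 members reached 0.1 in both group means, 5 in the sham mean alone (Grin1, Rab3c, Slc4a8, Svop and Syt4) and 1 in the BPVB mean alone (Shh).

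All 6 rats were wild-type Sprague-Dawley (SD) animals. Surgery was performed at postnatal day 1, and PVs of the right upper lobe were collected at postnatal day 21. The BPVB group had a suture tied around the left and right PVs over a padding needle that was then removed. The sham group had the same thoracotomy and vein exposure, with the suture placed and withdrawn. By the study's methods the rats of each group were drawn at random from the operated animals. The labels used here give neither sex nor litter. The question put to the comparison is how the vein wall of a rat with PV stenosis differs from that of a sham-operated rat.

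Synaptic vesicles are the small organelles of nerve terminals that take up transmitter through proton-driven transporters, dock at the membrane and fuse with it when calcium enters. Fusion is driven by SNARE proteins and timed by synaptotagmins, and the membrane is then recovered by clathrin-dependent endocytosis. In a vein such genes may be read from the terminals and cell bodies of autonomic and sensory nerves, but many also serve secretion and membrane traffic in non-neuronal cells.

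The libraries held 23439506 to 29725808 fragments, and the mean total of the BPVB group was 1.161 times that of the sham group. The tissue label was checked against marker lists. Smooth muscle, endothelial and atrial cardiomyocyte markers, the last from the muscle sleeve that surrounds rat PVs, were present in every library. The summed FPKM of 4 smooth muscle markers was 3796.2 to 3842.8 in the BPVB group and 4129.5 to 4208.7 in the sham group. The summed FPKM of 5 lung epithelial markers (Sftpc, Sftpb, Epcam, Cdh1 and Scgb1a1) was 454.53 to 494.05 in the BPVB group and 45.761 to 47.84 in the sham group. That of 8 neuronal markers was 18.288 to 22.357 against 34.203 to 35.727, and that of 5 Schwann cell markers was 41.325 to 41.813 against 97.956 to 101.72. The part of these cell types in the values below was not tested.

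Of the 162 members, 34 (21%) were lower in the BPVB group and 18 (11.1%) were higher, at an adjusted p under 0.05 (limma on log2(FPKM + 0.5), Benjamini-Hochberg adjustment over all tested genes). Among all tested genes the shares were 14.3% lower and 17.2% higher. With an absolute log2 fold change above 1 as well, the study's threshold for differentially expressed genes (DEGs), 8 members (4.94%) were down-regulated, where 1.03% of all tested genes were. These were Snap25, Syp, Syt1, Syt4, Slc17a7, Kif1a, Syngr3 and Rab3b. Lgi3 was the only up-regulated DEG among the members (0.617%, against 2.24% of all tested genes). The 3 BPVB values lay below the 3 sham values in 43 members (26.5%, against 20.5% of all tested genes) and above them in 24 (14.8%, against 25.2%). The median log2 fold change was -0.041 over the members and 0.0245 over all tested genes, and 31 of the 52 called members had an absolute log2 fold change under 0.5. Without the 6 members that reached the limit in 1 group alone, 32 were lower and 17 higher, with 7 down-regulated DEGs (Syt4 left the count) and 1 up-regulated DEG. The count of down-regulated DEGs depended on how low values were treated. It was 4 (2.47%) with a pseudocount of 1, where 0.647% of all tested genes were down-regulated, and 13 (8.02%) with a pseudocount of 0.1, where 1.91% were. With the latter, 2 members (1.23%) were up-regulated DEGs, beside 4.03% of all tested genes. The down-regulated count was 16 (9.88%) with limma-voom on the recovered fragments, where 2.44% of all tested genes were down-regulated. With limma-voom, 41 members were lower and 20 higher (16.9% and 19.9% of all tested genes), and 2 were up-regulated DEGs (4.52% of all tested genes). In bulk RNA, fewer cells of a type and less RNA per cell cannot be told apart. For 3 rats against 3, the smallest exact permutation p for a single value is 0.1.

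**Figure D1:**
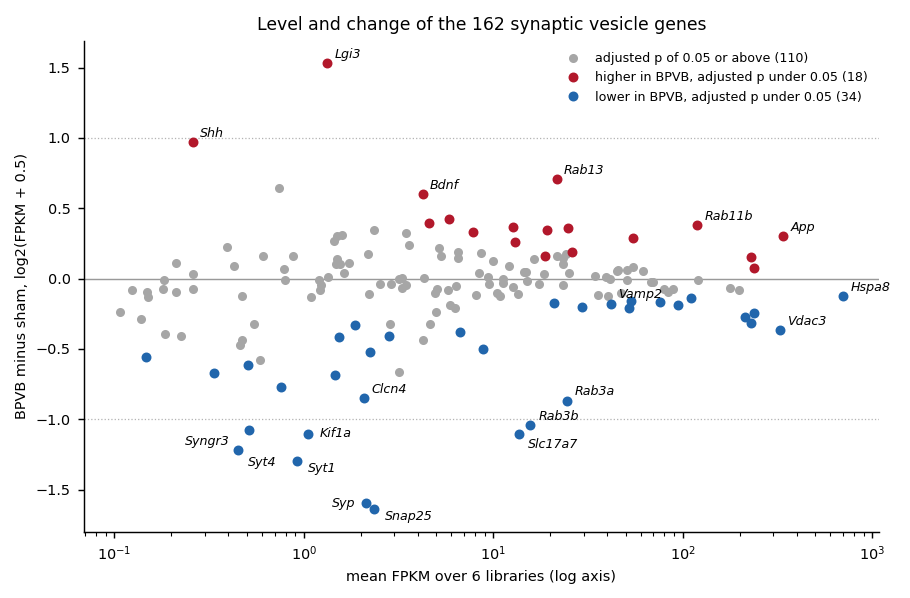
Level and change of the 162 members, with mean FPKM over 6 libraries on a log axis (x) and the BPVB minus sham difference of log2(FPKM + 0.5) on y. Grey points are the 110 members with an adjusted p of 0.05 or above, blue the 34 lower and red the 18 higher, and dotted lines mark the DEG threshold of 1. The 8 down-regulated DEGs lie between 0.451 and 15.5 FPKM, and the 13 members above 100 FPKM lie between -0.37 and 0.38 on y.

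The largest falls included proteins of vesicle fusion, loading and transport. Snap25 (NCBI Gene 25012), a SNARE protein of the presynaptic membrane, had 4.54, 3.85 and 3.02 FPKM in the sham libraries and 0.969, 0.807 and 0.826 in the BPVB libraries. The groups did not overlap, and the sham mean was 4.38 times the BPVB mean. It fell by 1.64 on the log2 scale (standard error, SE, 0.15, adjusted p = 5.4e-05, limma). Syp (NCBI Gene 24804), the tetraspan protein synaptophysin abundant in the vesicle membrane, had 3.84, 3.48 and 2.96 FPKM in the sham group and 1.24, 0.358 and 0.942 in the BPVB group. All BPVB libraries were again lower, with BPVB replicate 2 the lowest. The log2 fold change of Syp was -1.60 (SE 0.24, adjusted p = 0.0011, limma).

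Both synaptotagmins among the DEGs fell. Syt1 (NCBI Gene 25716), the calcium sensor of fast release, had 1.63, 1.57 and 1.33 FPKM in the sham group and 0.470, 0.160 and 0.348 in the BPVB group. The log2 fold change of Syt1 was -1.30 (SE 0.17, adjusted p = 0.00045, limma). The groups stood apart by more than the range within either of them. Syt4 (NCBI Gene 64440), a synaptotagmin of dense-core and other vesicles, had 1.13, 0.715 and 0.661 FPKM in the sham group and 0.058, 0.129 and 0.017 in the BPVB group. Behind these values were 104, 65 and 61 fragments in the sham libraries and 6, 13 and 2 in the BPVB libraries. The pseudocount of 0.5 exceeds the BPVB values of Syt4, so that its fall of 1.22 on the log2 scale (SE 0.17, adjusted p = 0.00076, limma) is smaller than the log2 fold change from limma-voom on the recovered fragments (-3.89).

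Of the loading transporters, Slc17a7 (NCBI Gene 116638) carries glutamate into vesicles (VGLUT1). It had 17.8, 21.9 and 17.1 FPKM in the sham group and 8.86, 8.43 and 8.19 in the BPVB group, the highest level of any vesicular transmitter transporter among the members. The sham mean was 2.23 times the BPVB mean, and the log2 fold change was -1.10 (SE 0.092, adjusted p = 3.2e-05, limma). Rab3b (NCBI Gene 81755), a small GTPase of the vesicle surface that regulates exocytosis, had 20.8, 21.1 and 21.3 FPKM in the sham group and 10.8, 9.19 and 10.0 in the BPVB group. Its sham libraries were nearly level with each other, and its fall was 1.04 on the log2 scale (SE 0.065, adjusted p = 5.2e-06, limma). Its paralog Rab3a (NCBI Gene 25531), the Rab3 form best known from brain synapses, had 32.9, 33.8 and 29.0 FPKM in the sham group and 17.6, 15.1 and 19.1 in the BPVB group. Rab3a fell by 0.87 on the log2 scale (SE 0.089, adjusted p = 1.1e-04, limma), under the DEG threshold.

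Kif1a (NCBI Gene 363288), the kinesin that carries synaptic vesicle precursors along axons, had 1.75, 1.35 and 1.76 FPKM in the sham group and 0.628, 0.304 and 0.548 in the BPVB group (log2 fold change -1.10, adjusted p = 0.0011, limma). Its relative Kif1b, which is also expressed outside neurons, had a log2 fold change of -0.06 and an adjusted p of 0.48. Syngr3 (NCBI Gene 302975), a synaptogyrin of the vesicle membrane, had 0.969, 0.834 and 0.820 FPKM in the sham group and 0.207, 0.2497 and 0.017 in the BPVB group (log2 fold change -1.08, adjusted p = 0.0015, limma). The lowest of these came from 1 fragment in BPVB replicate 3. Clcn4 (NCBI Gene 60586), a chloride/proton exchanger of intracellular membranes, had 2.29, 3.18 and 3.02 FPKM in the sham group and 1.39, 1.34 and 1.27 in the BPVB group. It fell by 0.85 on the log2 scale (SE 0.13, adjusted p = 0.0013, limma), with the tighter values in the BPVB group. These 10 falls were called in each alternative that tested them, including without each library in turn.

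**Figure D2:**
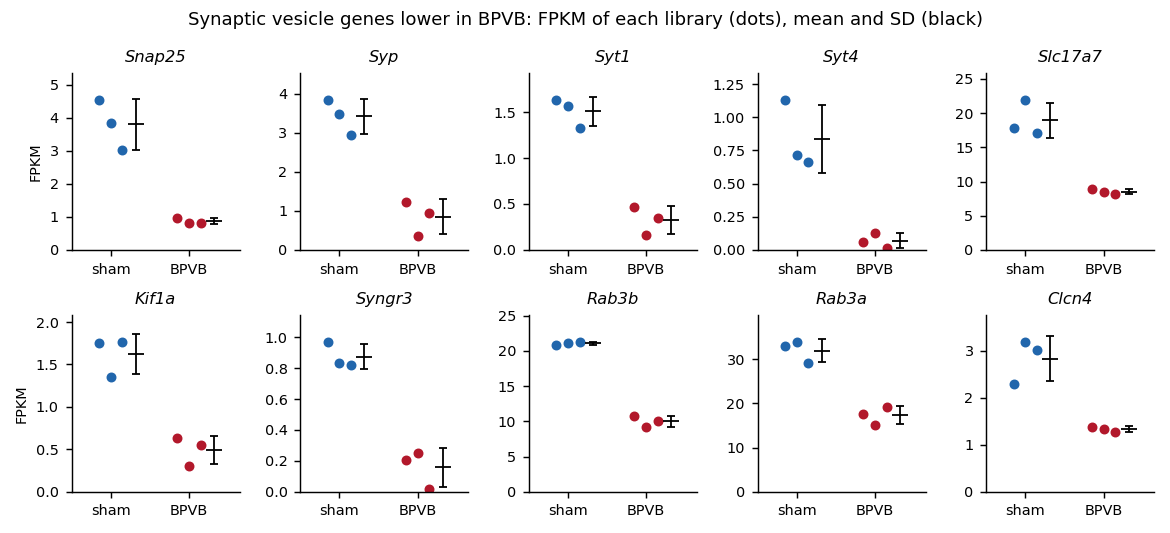
FPKM of each library (dots), with the mean and SD of 3 libraries (black), for the 10 members with the largest falls. The BPVB libraries of each gene lie below the sham libraries, with sham over BPVB mean ratios from 1.85 (Rab3a) to 12.3 (Syt4).

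The sequences upstream of the down-regulated DEGs are shown for the 3 with the largest falls that hold a GC box, a motif of promoters that lack a TATA element and that binds Sp-family factors. They are the 250 bases before the annotated start (RefSeq, build GRCr8), written 5′ to 3′ on the strand of the gene, with GC boxes (GGGCGG or its reverse complement CCGCCC) in capitals. The windows are chrX:17536450-17536699, minus strand, for Syp; chr7:46244214-46244463, minus strand, for Syt1; and chr1:104785955-104786204, plus strand, for Slc17a7.
Syp: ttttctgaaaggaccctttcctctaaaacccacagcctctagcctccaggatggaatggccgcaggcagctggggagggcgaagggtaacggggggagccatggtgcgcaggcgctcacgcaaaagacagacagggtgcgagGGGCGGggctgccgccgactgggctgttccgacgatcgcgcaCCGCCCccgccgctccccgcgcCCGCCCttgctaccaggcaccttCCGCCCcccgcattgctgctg
Syt1: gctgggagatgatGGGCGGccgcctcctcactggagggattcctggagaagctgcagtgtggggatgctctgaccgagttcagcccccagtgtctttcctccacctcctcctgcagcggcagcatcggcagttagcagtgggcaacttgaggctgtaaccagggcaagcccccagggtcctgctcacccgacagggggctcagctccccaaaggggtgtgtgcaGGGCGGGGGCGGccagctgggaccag
Slc17a7: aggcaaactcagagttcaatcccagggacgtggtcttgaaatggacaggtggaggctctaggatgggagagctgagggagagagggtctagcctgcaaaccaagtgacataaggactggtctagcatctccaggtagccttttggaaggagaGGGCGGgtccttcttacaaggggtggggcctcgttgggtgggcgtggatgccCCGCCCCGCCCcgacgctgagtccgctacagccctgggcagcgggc
Syp held 4 GC boxes and 68% G or C. Syt1 held 3 GC boxes, and so did Slc17a7, where the last 2 overlap. Of the 8 down-regulated DEGs, 6 matched an entry (all but Snap25 and Syngr3), and 4 of the 6 held a GC box. A GC box stood in 63.9% of the 133 members with an entry, 54.6% of the 12200 tested genes with one and 32.4% of all 27457 promoters. The E-box CACGTG was in none of the 6, in 9.77% of the members and in 7.64% of tested genes. The letters TGACG, the core of the cyclic AMP response element (either strand), were in 3 of the 6 (Syt4, Kif1a and Rab3b), in 30.1% of the members and in 26.4% of tested genes. Both strands were searched and each motif was counted on its own, so edge letters may be shared. A match describes letters and not a site in use.

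The other proteins of the vesicle membrane differed in how far they moved. A class of 13 members held the tetraspan and SV2-type proteins and a few others, and 4 of it (30.8%) were lower and 0 higher, beside 14.3% and 17.2% of all tested genes. Besides Syp and Syngr3, these were Svop, an SV2-related transporter (0.247, 0.368 and 0.198 FPKM in the sham group, against 0, 0.015 and 0.053 from 0, 1 and 4 fragments), and Cttnbp2, a cortactin-binding protein of neurons (-0.33). Cttnbp2 is neither a tetraspan nor an SV2-type protein, which leaves 3 of these types lower. Of these, Svop reached the limit of 0.1 FPKM in the sham mean alone, and Syp and Syngr3 reached it in both group means. The call for Svop was lost without BPVB replicate 1 or 2 or sham replicate 2 (adjusted p from 0.056 to 0.077), and that for Cttnbp2 without any 1 of the 6 libraries (0.072 to 0.13). Sv2a, Sv2b and Sv2c, the glycoproteins that give this family its name, overlapped between the groups. Sv2a had 3.06, 3.52 and 3.31 FPKM in the sham group and 3.64, 3.47 and 2.86 in the BPVB group, with log2 fold changes of 0.01 (Sv2a), 0.03 (Sv2b) and 0.04 (Sv2c). Synpr (-0.09, adjusted p = 0.79), a synaptophysin relative, was at 0.014 to 0.369 FPKM over the 6 libraries and overlapped as well. Syngr2, the widely expressed synaptogyrin, was at 68.0 FPKM with a log2 fold change of -0.02.

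All 3 synapsins, phosphoproteins that tether vesicles to the cytoskeleton, had negative values, and 1 passed the test. Syn2 (NCBI Gene 29179) had 1.77, 2.21 and 1.78 FPKM in the sham group and 1.08, 1.04 and 0.893 in the BPVB group (log2 fold change -0.68, SE 0.13, adjusted p = 0.0037, limma). Syn1, the marker most used for terminals, had 0.371, 0.875 and 0.596 FPKM in the sham group and 0.556, 0.169 and 0.191 in the BPVB group. BPVB replicate 1 lay inside the sham range, and the adjusted p of Syn1 was 0.15 at a log2 fold change of -0.48. Without BPVB replicate 1 it was 0.048. Syn3 was low in both groups, at 0.177 ± 0.026 FPKM (SD, n = 3) in the sham group and 0.123 ± 0.11 in the BPVB group.

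Among 22 SNARE proteins and regulators, 3 (13.6%) were lower, 1 (4.55%) was higher and 18 did not pass the test. The share lower is near the 14.3% of all tested genes, and 17.2% of those were higher. Vamp2, the vesicle SNARE synaptobrevin, had 43.2, 44.4 and 46.0 FPKM in the sham group and 39.6, 38.8 and 39.4 in the BPVB group. This fall of 0.18 on the log2 scale was small but larger than the spread (adjusted p = 0.0072, limma). Vamp2 pairs with Snap25 and syntaxin 1 in the fusion complex. Stx1a, a syntaxin 1 gene, had 0.868, 1.54 and 1.10 FPKM in the sham group and 1.13, 1.08 and 0.821 in the BPVB group, with overlap between the groups (adjusted p = 0.60). Stx4, the syntaxin of the plasma membrane in many cell types, was lower by 0.20 (adjusted p = 0.034), and Septin5, a septin that binds syntaxin, was higher by 0.33 (adjusted p = 0.0090). The call for Stx4 was lost without BPVB replicate 1 or 2 or sham replicate 1 or 3 (0.083 to 0.11).

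Of 7 synaptotagmins and other calcium sensors, Syt1 and Syt4 were lower and Anxa5, an annexin found in most cell types, was higher by 0.15 (adjusted p = 0.0032). Syt7 had a log2 fold change of -0.32 and an adjusted p of 0.051, and its groups did not overlap. Of 8 transporters, 3 (37.5%) were lower and 0 higher, beside 14.3% and 17.2% of all tested genes. Slc18a2, which loads monoamines into vesicles (VMAT2), had 0.646, 0.861 and 0.645 FPKM in the sham group and 0.312, 0.442 and 0.151 in the BPVB group (log2 fold change -0.61, adjusted p = 0.025, limma). Every BPVB library was lower, but the call was lost without BPVB replicate 1 (adjusted p = 0.054), BPVB replicate 3 (0.073), sham replicate 1 (0.0503) and sham replicate 2 (0.084). Slc6a17, a vesicular carrier of neutral amino acids, fell by 0.52 (adjusted p = 0.0061). Among 8 proton pump and channel members, Clcn4 was lower and Atp6v0a1, a subunit of the proton pump, was higher by 0.19 (adjusted p = 0.014). The other 3 pump subunits, Atp6v1g1, Atp6v0c and Atp6v0d1, had log2 fold changes of -0.08, -0.07 and 0.06.

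Of the 20 Rab GTPases and effectors, 3 were lower and 3 higher, 15% each, which is near the 14.3% and 17.2% of all tested genes. Rabac1, a Rab acceptor of the Golgi, was lower by 0.14 (adjusted p = 0.029), a call lost without replicate 2 or 3 of either group (0.069 to 0.097). Of the 4 Rab3 paralogs, Rab3a and Rab3b fell. Rab3d, the form of exocrine and mast cell granules, had 11.12, 10.96 and 11.17 FPKM in the sham group and 14.8, 14.8 and 13.6 in the BPVB group. Its BPVB libraries were the higher ones, and the rise was 0.36 (SE 0.059, adjusted p = 0.0016, limma). Of 3 tested mast cell markers, 2 (Cpa3 and Cma1) were also higher and 0 lower, with a summed FPKM of 12.19 to 12.63 in the sham group and 18.1 to 19.7 in the BPVB group. The part of these cells in the rise of Rab3d was not tested. Rab3c stood at the limit of detection, with 6, 2 and 9 fragments in the sham libraries and 6, 0 and 1 in the BPVB libraries (adjusted p = 0.35). Rab11b, a GTPase of recycling endosomes, had 101, 108 and 102 FPKM in the sham group and 133, 132 and 138 in the BPVB group (log2 fold change 0.38, adjusted p = 7.8e-05, limma). Rab13, a GTPase of epithelial and endothelial junctions, had 15.996, 16.3 and 16.3 FPKM in the sham group and 23.2, 27.1 and 30.6 in the BPVB group. It rose by 0.71 on the log2 scale (SE 0.088, adjusted p = 3.5e-04, limma), and no BPVB library came near the sham range. The epithelial markers given with the libraries moved the same way, and their part in this rise was not tested. Rab5a (0.16) and Rab5al1 (0.32), named as a Rab5a-like gene, may share reads that the counting could have split, and neither passed the test.

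**Figure D3:**
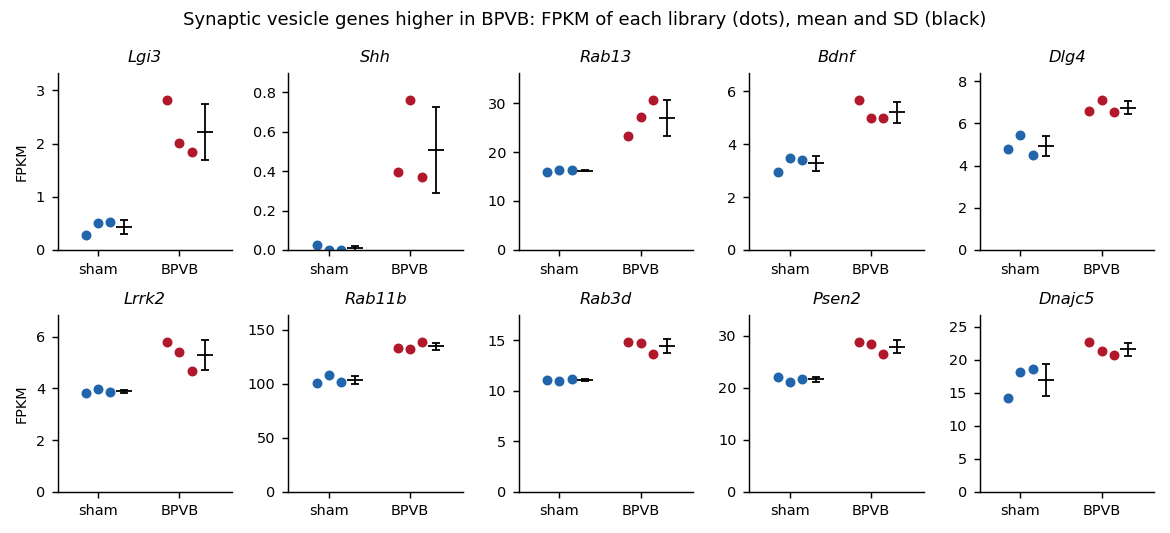
FPKM of each library (dots), with the mean and SD of 3 libraries (black), for the 10 members with the largest rises. The BPVB libraries of each gene lie above the sham libraries, and the mean ratio runs from 1.27 (Dnajc5) to 5.09 (Lgi3) in genes other than Shh, whose sham libraries held 1 fragment in all.

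On log2(FPKM + 0.5), the largest rise was that of Lgi3 (NCBI Gene 306013), a secreted leucine-rich repeat protein of the family that organizes synapses. It had 0.284, 0.499 and 0.524 FPKM in the sham group and 2.82, 2.005 and 1.84 in the BPVB group. The BPVB mean was 5.09 times the sham mean, and the log2 fold change was 1.53 (SE 0.18, adjusted p = 2.1e-04, limma). Shh, the secreted morphogen sonic hedgehog, had 1, 0 and 0 fragments in the sham libraries and 18, 34 and 19 in the BPVB libraries. Per fragment sequenced, the BPVB group held 61.1 times as many (95% interval 10.6 to 2448.5, exact, counting error only), and on log2(FPKM + 0.5) the difference was 0.97 (adjusted p = 0.0031, limma). Bdnf, a neurotrophin, had 2.96, 3.46 and 3.39 FPKM in the sham group and 5.66, 4.98 and 4.99 in the BPVB group (log2 fold change 0.60, adjusted p = 0.0018, limma). The groups of Bdnf lay apart. The neurotrophins Ntf3 (0.09) and Ntf4 (0.65) did not pass the test (adjusted p = 0.59 and 0.14). Beside Lgi3 and Shh stand the epithelial markers, which were higher in the BPVB group (5 of 5 with an adjusted p under 0.05), and the part of that difference in these rises was not tested.

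In the adhesion and scaffold class of 17 members, 3 (17.6%) were higher and 5 (29.4%) lower. Of all tested genes, 17.2% were higher, which is near the share of this class, and 14.3% lower. With Lgi3, Dlg4 (PSD-95, a postsynaptic scaffold) was higher, at 6.58, 7.09 and 6.54 FPKM in the BPVB group and 4.796, 5.42 and 4.49 in the sham group (log2 fold change 0.42, adjusted p = 0.0068, limma). Iqsec1 was higher by 0.16 (adjusted p = 0.025), a call lost without any library but BPVB replicate 2 (0.055 to 0.069). All 3 voltage-dependent anion channels, mitochondrial outer membrane proteins found in most cells, were lower. Vdac3 had 377, 363 and 362 FPKM in the sham group and 290, 284 and 280 in the BPVB group (log2 fold change -0.37, adjusted p = 1.5e-05, limma). Vdac2 and Vdac1 were lower by 0.24 and 0.27. Pebp1 was lower by 0.32 and Marcksl1 by 0.50, the latter a call lost without BPVB replicate 2 (adjusted p = 0.0501), sham replicate 1 (0.081) or sham replicate 3 (0.063).

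Of 14 endocytosis members, 5 (35.7%) were lower and 1 (7.14%) was higher, beside 14.3% and 17.2% of all tested genes. Dnm1, the neuronal dynamin that cuts vesicles from the membrane, had 6.67, 7.46 and 8.79 FPKM in the sham group and 5.41, 5.35 and 6.46 in the BPVB group. It was lower by 0.38 (adjusted p = 0.033, limma), a call lost without BPVB replicate 1 or 2 or sham replicate 2 or 3 (adjusted p from 0.071 to 0.11). Snap91 (AP180), a neuronal clathrin adaptor, was lower by 0.41 (adjusted p = 0.027), a call lost without any library but BPVB replicate 2 (0.0505 to 0.085). Amph (amphiphysin) had 4.75, 4.99 and 5.07 FPKM in the sham group and 2.53, 4.07 and 4.14 in the BPVB group, with all BPVB libraries lower and an adjusted p of 0.067 (0.0061 with limma-voom). Hspa8, the chaperone that uncoats clathrin vesicles and serves all cells, was the most abundant member (755, 720 and 728 FPKM in the sham group, 698, 673 and 648 in the BPVB group). It was lower by 0.13 (adjusted p = 0.016, and 0.063 without sham replicate 1). Its partner Dnajc5 (cysteine string protein) was higher, with 14.2, 18.1 and 18.6 FPKM in the sham group and 22.7, 21.3 and 20.8 in the BPVB group (log2 fold change 0.35, adjusted p = 0.023, limma). The call for Dnajc5 was lost without BPVB replicate 1 (0.074) and without BPVB replicate 2 (0.053).

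Among 21 secretases, neurodegeneration proteins and kinases, 6 (28.6%) were higher and 2 (9.52%) lower, beside 17.2% and 14.3% of all tested genes. App, the amyloid precursor protein, had 296, 305 and 310 FPKM in the sham group and 376, 376 and 369 in the BPVB group (log2 fold change 0.30, adjusted p = 3.6e-05, limma). Psen2, a catalytic subunit of gamma-secretase, had 22.1, 21.1 and 21.8 FPKM in the sham group and 28.8, 28.5 and 26.5 in the BPVB group, a rise of 0.36 (adjusted p = 6.0e-04). Its groups lay apart. The gamma-secretase subunits Ncstn (0.01) and Aph1a (-0.05) did not pass the test. Ppt1, a lysosomal thioesterase, rose by 0.29 and Lrrk2, a kinase, by 0.40, the latter with an adjusted p of 0.052 without BPVB replicate 1. Lamp1, a lysosomal membrane protein, rose by 0.08 (adjusted p = 0.047), a call lost without any library but sham replicate 2 (0.066 to 0.15). All 4 macrophage markers, from a cell type rich in lysosomes, were higher as well, with a summed FPKM of 23.4 to 25.3 in the sham group and 39.9 to 42.6 in the BPVB group. Their part in the rises of Ppt1 and Lamp1 was not tested. Adam10, an alpha-secretase, was lower by 0.16 (adjusted p = 0.012).

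The motor, tether and transport class, the receptors and a last class of 5 held 0 members called higher, beside 17.2% of all tested genes. Their shares lower were 16.7%, 28.6% and 20%, beside 14.3%. Of 12 motor, tether and vesicle transport members, Kif1a and Snapin, a SNARE-binding subunit of BLOC-1 (-0.21, adjusted p = 0.0031), were lower. Of 7 receptors and their G protein, Npy1r, a neuropeptide Y receptor, was lower by 0.41 (adjusted p = 0.027, and 0.066 to 0.087 without BPVB replicate 2 or 3 or sham replicate 2) and Gnas by 0.19 (adjusted p = 0.0011). Gnas is a complex locus, so overlapping transcripts add to its value. The glutamate receptor genes Gria1, Gria2 and Grin1 had mean FPKM of 0.585, 0.125 and 0.138 and did not pass the test. In the remaining class of 5, Rnf112, a membrane-anchored ubiquitin ligase, fell by 0.67 (adjusted p = 0.0074).

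**Figure D4:**
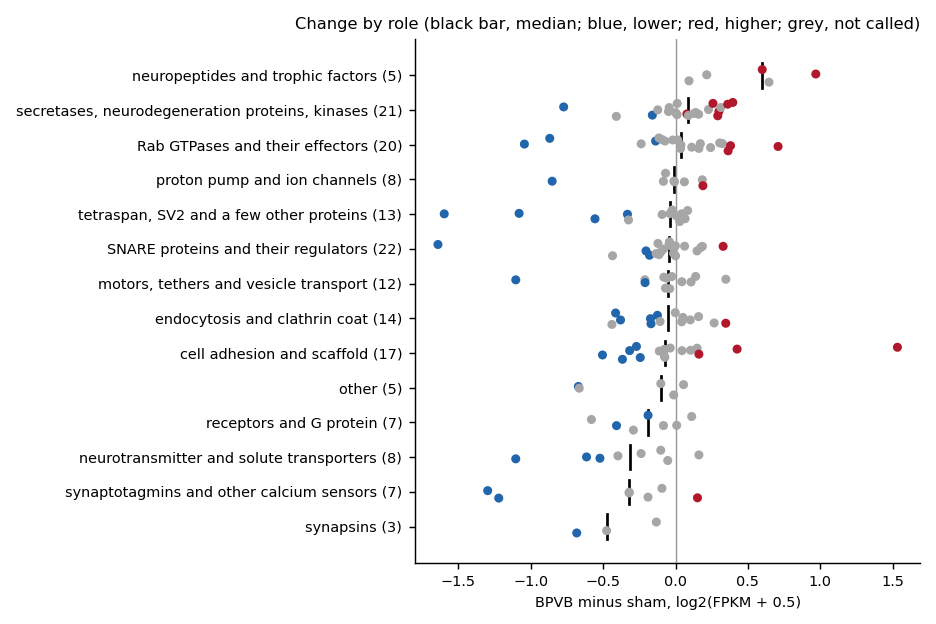
BPVB minus sham difference of log2(FPKM + 0.5) (x) for each member, by role class (y, number of members in parentheses), with the class median as a black bar and calls in red (higher) and blue (lower). Class medians run from -0.48 (synapsins) to 0.60 (neuropeptides and trophic factors), and 6 of the 14 classes hold 0 members called higher, among them transporters, synapsins and the class of tetraspan, SV2 and a few other proteins.

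The members were also grouped by level. In the 33 members with a mean FPKM from 0.1 to 1, the median log2 fold change was -0.122 and the range -1.30 to 0.97, with 7 lower and 1 higher, where 5.95% of all tested genes at this level were lower and 10.5% higher. Without those that reached the limit in 1 group alone, 27 members of this level had a median of -0.093, with 5 lower and 0 higher. In the 62 members from 1 to 10 FPKM the median was -0.038, with 11 lower (17.7%) and 5 higher (8.06%), where 10.2% and 15.7% of all tested genes at this level were. In the 54 members from 10 to 100 FPKM it was -0.0072, with 10 lower (18.5%) and 8 higher (14.8%), beside 20.4% and 20.9% of all tested genes. In the 13 members above 100 FPKM the range was -0.37 to 0.38, with 6 lower and 4 higher. Of all tested genes above 100 FPKM, 40.1% were lower and 31.4% higher. Just inside the limit of 0.1 stood Rab3c (0.107 FPKM), Gria2 (0.125) and Grin1 (0.138), and just outside it Kirrel3 (0.0890), Slc32a1 (0.0860) and Ptpn5 (0.0643).

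**Figure D5:**
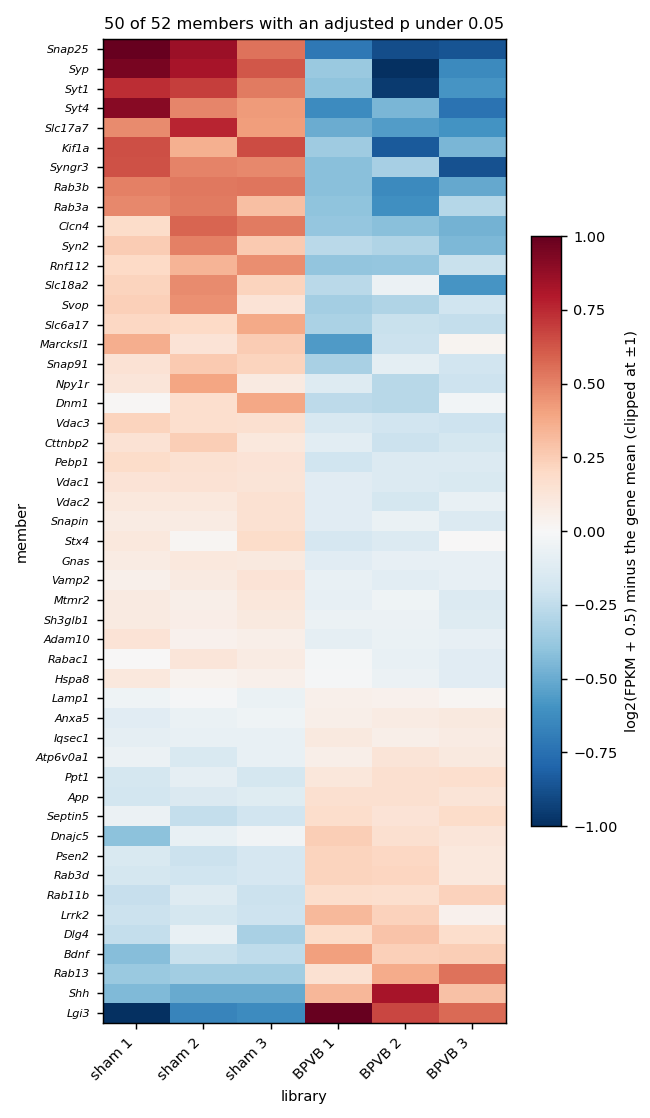
Each row is 1 of 50 of the 52 called members and each column a library, with log2(FPKM + 0.5) minus the mean of the gene in colour (red above, blue below, clipped at 1 in either direction). Rows run from the largest fall (Snap25) to the largest rise (Lgi3), and the 3 sham and the 3 BPVB columns fall on opposite sides of 0 in most rows.

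The active zone, the site of the terminal where vesicles dock, was read from a separate list of 54 genes. Of its 34 tested genes that are not members, 5 were lower and 5 higher, 14.7% each, which is near the 14.3% and 17.2% of all tested genes. The lower ones were led by Rims1, a scaffold that tethers vesicles to calcium channels, which had 1.05, 1.07 and 0.934 FPKM in the sham group and 0.149, 0.119 and 0.101 in the BPVB group (log2 fold change -1.29, adjusted p = 1.0e-04, limma). The groups of Rims1 lay far apart. Of the higher ones, Cacna2d1, a calcium channel subunit also used by muscle, had the lowest adjusted p (log2 fold change 0.98, adjusted p = 4.1e-05). Cadps, a priming factor of dense-core vesicles, had the larger rise (log2 fold change 1.00, adjusted p = 0.0022). Of 7 tested neuronal markers 4 were lower and 0 higher, led by Tubb3, the neuronal beta-tubulin, at 6.37, 7.57 and 7.64 FPKM in the sham group and 1.51, 0.783 and 1.41 in the BPVB group (log2 fold change -2.17, adjusted p = 2.5e-05, limma). The call of Elavl4, another of the 4, was lost without any 1 library but sham replicate 1 (adjusted p = 0.059 to 0.13). Stmn2 and Rbfox3 did not pass the test. Of 5 Schwann cell markers 4 were lower and 1, S100b, was higher (0.78). The call of Sox10, a transcription factor of the Schwann cell lineage and 1 of the 4, was lost without sham replicate 1 (adjusted p = 0.055). Of the neuroendocrine markers, Scg5 was lower (-0.88, adjusted p = 0.035), a call lost without any 1 library but sham replicate 1 (0.055 to 0.11) and with limma-voom (0.063). How much of the members' falls goes with these cells was not tested.

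Some of the 12 genes left out by name belong to single transmitters, whether or not they carry the term. Slc18a3 and Slc5a7, the vesicular acetylcholine and plasma membrane choline transporters, were lower in the BPVB group (adjusted p = 4.1e-05 and 1.1e-04), and Slc18a3 was listed at 0 in all 3 BPVB libraries. Th, the rate-limiting enzyme of catecholamine synthesis, was lower (log2 fold change -1.27, adjusted p = 0.0028), whereas Slc6a2, the noradrenaline transporter, was higher (1.52, adjusted p = 3.6e-05). Npy was at 111 ± 4.3 FPKM (SD, n = 3) in the sham group and 108 ± 4.6 in the BPVB group.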

How the data were processed

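Bulk RNA-seq libraries of 3 BPVB and 3 sham PVs were compared, and the group and replicate number of each library came from the sample labels. The authors deposited 1 FPKM value per gene and library, with Gene Ontology terms. The paper names fastp, HISAT and HTSeq-count and the VAHTS Universal V6 kit. The submitters' processing notes list HISAT2 2.0.5, StringTie 1.3.3b, featureCounts 1.5.0-p3 and DESeq2 1.20.0, and the labels name the NEBNext Ultra kit. Which counter made the values, the genome build, the annotation and the strand setting are not given in the sources used here. The table held 0 unused columns of per-sample values.

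Fragment numbers were recovered from ratios between the values of a gene in different libraries (whole for 100% of genes, tolerance 1e-11 on the ratio). The library totals follow from them, and fragments need not be independent molecules. The groups were compared with limma 3.58.1 in R 4.3.3 (lmFit, eBayes with a trend) on log2(FPKM + 0.5), two-sided, over the 15150 genes whose mean FPKM reached 0.1, with Benjamini-Hochberg adjustment. The pseudocount of 0.5 makes differences of low genes smaller than their true ratio. For DEGs the thresholds were 0.05 on the adjusted p and 1 on the absolute log2 fold change. The authors compared the groups with DESeq2, which was not run here. Code was tested on simulated data. Summaries used Python 3.11.15 (pandas 2.3.3, numpy 2.4.6, scipy 1.17.1) and figures matplotlib 3.10.9. Promoter sequences came from RefSeq (build GRCr8), matched by NCBI Gene number.

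The members, role classes and lists were chosen with earlier results of these data known. Named genes were 22 textbook vesicle genes, the 10 largest rises and 10 largest falls among called members whose groups do not overlap, the 5 most abundant members, those beside the limit of 0.1, and the calls of lowest adjusted p in each class and list. Other members were added beside a relative that the rule named, after their values were seen. Some genes that enter the counts are not reported here by name. The 16 alternatives were pseudocounts of 1 and 0.1, a limit of 1 on mean FPKM, no filter, median-of-ratios, TPM and quantile scaling, a block for the replicate number, robust eBayes, limma-voom on recovered fragments, and leaving out each of 6 libraries.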

Additional observations from a re-analysis of the deposited data

How the results depend on the processing

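Of the 52 called members, 37 (23 lower and 14 higher) kept their call and direction in each of the 16 alternatives that tested them, and 15 lost the call when 1 library was left out, with or without a loss elsewhere. TPM scaling ended the calls of Cttnbp2, Hspa8, Mtmr2, Rabac1 and Stx4, quantile normalization that of Hspa8, median-of-ratios scaling that of Lamp1, a pseudocount of 0.1 that of Cttnbp2 and no filter on low expression those of Cttnbp2, Dnm1 and Stx4. The count of members lower was 27 to 41 and of members higher 14 to 20 over the alternatives. Leaving out 1 library in turn gave 27 to 31 lower, 14 to 18 higher, 6 to 9 down-regulated DEGs, 1 to 2 up-regulated DEGs (2 without BPVB replicate 1 or 3) and a median log2 fold change of the members of -0.06247 (without sham replicate 3) to -0.02874 (without BPVB replicate 1). Down-regulated DEGs numbered 4 with a pseudocount of 1, 13 with a pseudocount of 0.1, 5 with a mean FPKM of at least 1, where fewer members were tested and 1% of all tested genes were down-regulated, and 16 with limma-voom. Up-regulated DEGs numbered 2 with a pseudocount of 0.1 and 2 with limma-voom. The median log2 fold change of -0.041 was -0.0233 with a limit of 1 on mean FPKM, -0.06346 with median-of-ratios scaling, -0.01251 with TPM scaling and -0.07402 with quantile normalization. The median over all tested genes, 0.0245 in the main fit, moved in the same direction with each scaling. It was 0.00224 with median-of-ratios scaling, 0.0515 with TPM scaling and -0.0126 with quantile normalization. With the limit of 1 it was 0.0199. Values that changed sign all belonged to members that did not pass the test. Sv2a (0.0053) was -0.0173 with median-of-ratios scaling, -0.073 with quantile normalization and -0.0028 with limma-voom, and quantile normalization gave -0.0312 for Sv2b and -0.071 for Sv2c. Without 1 library, log2 fold changes ranged from -0.0541 to 0.0948 for Sv2a, from -0.0867 to 0.134 for Sv2b, from -0.0611 to 0.154 for Sv2c, from -0.339 to 0.0400 for Synpr and from -0.268 to 0.0206 for Stx1a. The cause was not tested.

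The replicate numbers did not pair the libraries, since same-numbered libraries deviated together with a correlation of only 0.0255, 0.0136 and 0.0153 over genes. Each library correlated best with its own number, a hint from the data and not from the design. With the replicate block, 33 members were lower, 17 higher, 8 down-regulated DEGs and 1 up-regulated DEG, and the median was -0.041, and the calls of Cttnbp2, Iqsec1, Lamp1, Mtmr2 and Npy1r were lost. Depth limits the members with few fragments, such as Rab3c, Svop and Shh, whose fold is set by the pseudocount. An adjusted p of 0.05 or above does not show that a member was level between the groups.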
